A study of Mus musculus with 6 samples.

Results

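The Slc22 genes of mouse liver were examined in animals that lack profilin 2 (Pfn2-/-) and in wild-type animals. The set holds 9 genes: Slc22a3, Slc22a5, Slc22a7, Slc22a15, Slc22a18, Slc22a23, Slc22a27, Slc22a28 and Slc22a30. Of these, 8 were found among 22180 genes measured. Slc22a3, which encodes an organic cation transporter, was not analysed here, since no row of the value table carries its symbol. The genes were selected on earlier results for the genotype contrast in these same arrays, in which Slc22a28 and Slc22a30 were higher in the knockout. Genotype differences of the 8 genes are therefore a description, and no test of them is given. A further 16 Slc22 genes were measured that had not been picked, and these were tested.

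The arrays came from whole liver of C57BL/6 mice, 3 wild-type and 3 Pfn2-/- animals, described as independent biological replicates. In each genotype replicate 1 was 9 months old, replicate 2 was 8.5 months old and replicate 3 was 8 months old. The animals had no treatment. Their sex, and how the Pfn2 allele was made, are not stated in the labels. Profilin 2 binds monomeric actin. Its own row was low, at 3.85 to 4.09 in wild type and 3.81 to 3.93 in the knockout, and the part of the transcript it covers is not given, so it does not check the genotype labels. Across genes, arrays correlated at 0.981 to 0.9898 within a genotype and at 0.9815 to 0.9872 between genotypes. The number of arrays limits the precision. Values are RMA expression on the log2 scale. A row was called dim where all 6 arrays lay below 3.8, the lower quartile of the gene means.

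The Slc22 family consists of membrane carriers of the major facilitator superfamily that move small organic ions across epithelia. The organic anion transporters exchange drugs, metabolites and urate for intracellular anions. The organic cation transporters carry amines and cationic drugs, and the carnitine and zwitterion transporters bring in carnitine, which cells need to take long-chain fatty acids into mitochondria. In hepatocytes such carriers sit mainly on the blood-facing membrane and set how much of a compound enters the cell. Rodents have an additional cluster of organic anion transporter genes, several of whose products have few known substrates. Slc22a27, Slc22a28 and Slc22a30 belong to that cluster on chromosome 19, where the protein-coding genes run Slc22a19, Slc22a26, Slc22a27, Slc22a28, Slc22a29, Slc22a30, Slc22a8, Slc22a6 in the RefSeq gene order of GRCm38.p6.

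Slc22a28 and Slc22a30 are not direct neighbours, since Slc22a29 lies between them, yet the sequences just upstream of their starts were close copies. The 250 bases before each start are shown for these genes and for Slc22a29. The first pair was higher in the knockout, while the row of Slc22a29 was dim in every array and says little about the genotypes. Whether the upstream sequences bear on the expression values was not tested. The sequences are from RefSeq, build GRCm38.p6, minus strand, at chr19:8131983-8132232 for Slc22a28, chr19:8405106-8405355 for Slc22a30 and chr19:8218901-8219150 for Slc22a29. Capitals mark mismatches in the alignment of Slc22a28 with Slc22a30, and, in Slc22a29, mismatches in its alignment with Slc22a28. Bases with no aligned partner, at the ends or in gaps, are in lower case too.
Slc22a28: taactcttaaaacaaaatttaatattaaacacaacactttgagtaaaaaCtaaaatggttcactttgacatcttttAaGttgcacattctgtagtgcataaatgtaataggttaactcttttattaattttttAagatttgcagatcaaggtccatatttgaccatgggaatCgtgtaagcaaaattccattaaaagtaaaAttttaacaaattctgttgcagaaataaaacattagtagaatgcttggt
Slc22a30: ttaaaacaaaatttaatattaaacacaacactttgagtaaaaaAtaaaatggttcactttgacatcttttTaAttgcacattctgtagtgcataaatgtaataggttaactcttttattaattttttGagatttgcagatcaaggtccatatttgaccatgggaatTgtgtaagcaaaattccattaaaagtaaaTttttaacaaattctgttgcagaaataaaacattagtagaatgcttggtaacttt
Slc22a29: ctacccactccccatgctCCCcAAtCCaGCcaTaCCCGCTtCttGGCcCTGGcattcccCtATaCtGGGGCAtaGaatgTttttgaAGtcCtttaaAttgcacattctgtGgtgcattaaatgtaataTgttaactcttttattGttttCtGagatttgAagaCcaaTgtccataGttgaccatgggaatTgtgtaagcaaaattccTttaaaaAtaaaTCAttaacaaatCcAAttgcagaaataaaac

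In a global alignment with free ends, 238 of 244 aligned bases were identical between Slc22a28 and Slc22a30 (97.5%), with 6 mismatches, no gap inside the alignment and an offset of 6 bases between the annotated starts. Slc22a29 shared 74.4% of 227 aligned bases with Slc22a28 and 77.8% of 221 with Slc22a30. Slc22a27, on the other side of Slc22a28, shared 56.6% and 59.7% with these genes, and the lowest value among the 6 genes from Slc22a19 to Slc22a30 was 52% (Slc22a19 with Slc22a27). These percentages describe upstream DNA and not the transcripts to which the probes hybridise. The upstream sequences of Slc22a28 and Slc22a30 were rich in A and T, with 26.8% and 25.6% G and C, against 38% in Slc22a29. Both strands of the 250 bases were searched for TTCNNNGAA, the core of sites for STAT factors, which is present in 7.02% of 32851 promoters of the table. It was found in Slc22a15 (TTCTCGGAA) but in none of the other 7 members that have a promoter there, and outside the members in Slc22a16, Slc22a19 and Slc22a26. CAAAGTCCA for HNF4 (0.384% of all promoters), an HNF1 palindrome (0.0609%) and a direct repeat of the nuclear receptor half-site with 1 base between (DR1, 0.0335%) were found in no Slc22 promoter of the table, which holds no Slc22a7. A match is a description of letters and not of a bound site.

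Slc22a28 was higher in every knockout liver than in every wild-type liver. Its log2 expression was 9.47, 9.29 and 9.35 in wild-type replicates 1, 2 and 3 and 10.25, 9.97 and 10.01 in knockout replicates 1, 2 and 3. The means were 9.37 ± 0.09 (SD, n = 3) and 10.08 ± 0.15 (SD, n = 3), a log2 difference of 0.71 (SE 0.13), or 1.63-fold higher in the knockout. Between animals of the same labelled age the difference was 0.78 at 9 months, 0.68 at 8.5 months and 0.66 at 8 months. Other pairings would give a wider range, since wild-type values ran from 9.29 to 9.47 and knockout values from 9.97 to 10.25. With single arrays left out the log2 difference ranged from 0.62 to 0.76.

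Slc22a30 had the largest difference of the 8 members. It lay at 7.25, 6.97 and 6.82 in wild-type arrays, against 7.79, 7.75 and 8.22 in knockout arrays. The groups did not overlap, and the highest value was in knockout replicate 3. The means were 7.01 ± 0.22 (SD, n = 3) and 7.92 ± 0.26 (SD, n = 3), a log2 difference of 0.91 (SE 0.17), or 1.87-fold higher. The same-age differences were 0.54 at 9 months, 0.78 at 8.5 months and 1.40 at 8 months, a wider spread than for Slc22a28. The last is the gap between the lowest wild-type and the highest knockout array. Without knockout replicate 3 the log2 difference was 0.76, and the range over single arrays left out was 0.76 to 1.02.

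**Figure D1:**
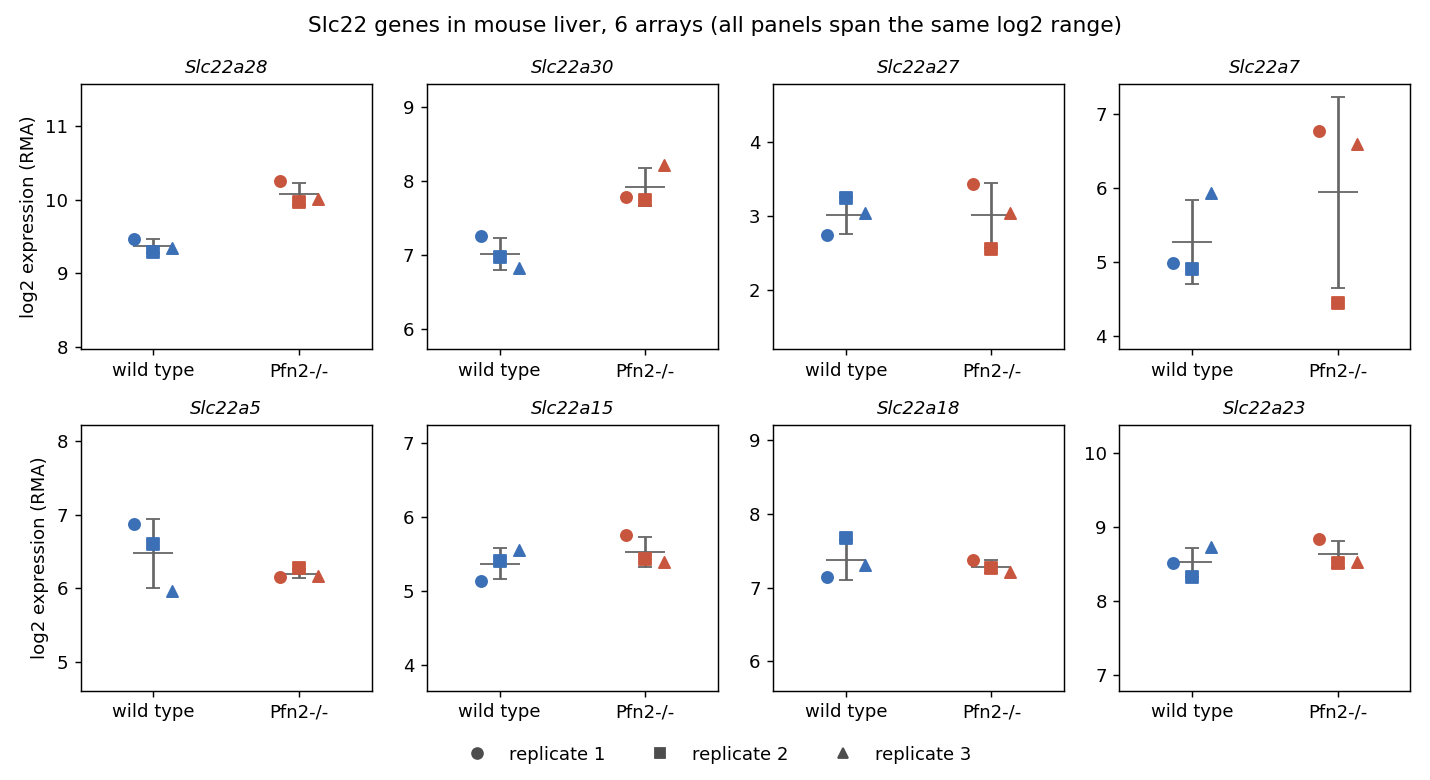
Log2 expression (y axis) of the 8 Slc22 members in wild-type (blue) and Pfn2-/- (red) liver, 1 point per array with the shape giving the replicate, and the mean with SD as bars; all panels span the same log2 range. Slc22a28 and Slc22a30 lie higher in all 3 knockout arrays, Slc22a7 is spread widely over the knockout arrays, and the groups overlap in the 6 panels other than Slc22a28 and Slc22a30.

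Slc22a27, the third member from the cluster, was dim in every array, at 2.75, 3.24 and 3.04 in wild type and 3.44, 2.55 and 3.04 in the knockout. Both means were 3.01 and the groups overlapped fully. At this level a lower value could hardly show, so the row says little about the genotypes. Slc22a29, which is not a member, was dim as well, at 2.38, 1.99 and 2.50 in wild type and 1.99, 2.06 and 1.60 in the knockout. Its log2 difference of -0.41 (SE 0.17, limma adjusted p = 0.92) did not pass the test. Slc22a26, a further anion transporter gene of the cluster, lay at 4.34, 5.31 and 4.36 in wild-type arrays, against 4.33, 3.73 and 4.15 in knockout arrays. The groups did not overlap, although 4.34 and 4.33 are all but equal, and the log2 difference of -0.60 (SE 0.26, limma adjusted p = 0.92) did not pass. It was -0.28 without wild-type replicate 2. Slc22a19, an anion transporter gene known from kidney, was dim, at 3.42 to 3.60 in wild type and 3.07 to 3.36 in the knockout (-0.24, SE 0.13, adjusted p = 0.943).

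**Figure D2:**
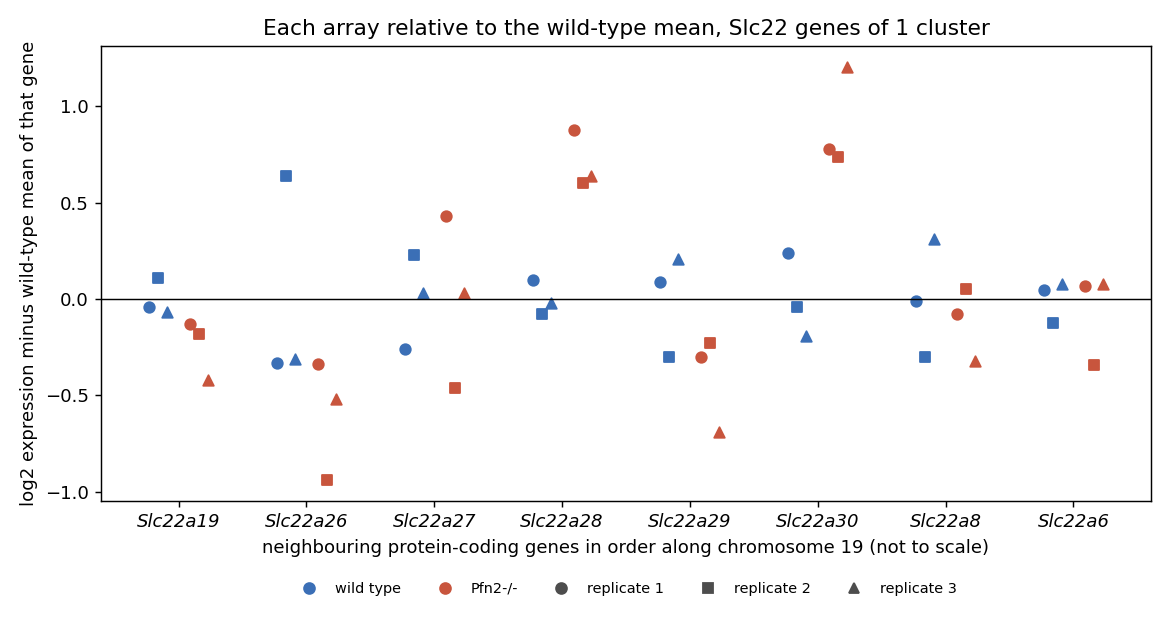
Log2 expression of each array minus the wild-type mean of the gene (y axis) for 8 neighbouring Slc22 genes in their order along chromosome 19 (x axis, not to scale), wild type in blue and Pfn2-/- in red. Knockout points of Slc22a28 and Slc22a30 lie above 0 while all those of the gene between them, Slc22a29, which is dim, lie below 0.

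Rows of close paralogs may share probes, and how far the rows of this cluster do so was not tested, since probe sequences were not used here. Among the knockout arrays replicate 1 was highest for Slc22a28 and replicate 3 for Slc22a30. Over the 6 arrays Pearson's r of Slc22a28 with Slc22a30 was 0.888 and r with Slc22a29 was -0.595, over arrays that also differ in genotype. Slc22a8 and Slc22a6, the renal organic anion transporters at the end of the cluster, had log2 differences of -0.12 (SE 0.17) and -0.07 (SE 0.15), with overlapping groups and limma adjusted p of 0.979 and 0.991.

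Slc22a7 encodes OAT2, an organic anion transporter of liver and kidney. Its log2 expression was 4.98, 4.90 and 5.93 in wild type and 6.78, 4.45 and 6.60 in the knockout. Knockout replicates 1 and 3 lay above all wild-type arrays, and knockout replicate 2 was the lowest of the 6. The means were 5.27 ± 0.57 (SD, n = 3) and 5.94 ± 1.30 (SD, n = 3). The log2 difference of 0.67 (SE 0.54) was slightly above the wild-type SD and well below the knockout SD. It was 1.42 without knockout replicate 2 and 0.26 without knockout replicate 1. The same 2 knockout animals had high values of genes of the acute-phase response, the change in hepatocyte secretion that inflammation brings. For Saa2, knockout replicates 1 and 3 had 10.83 and 12.22, replicate 2 had 7.31 and the wild-type range was 6.76 to 7.80. For Orm2 these values were 9.58 and 10.09, 6.44, and 6.75 to 7.42. Wild-type replicate 3, the highest of its group for Slc22a7, had the lowest Saa2 value (6.76) and the highest wild-type Orm2 value (7.42). The part of this response in the Slc22a7 values was not tested.

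Slc22a5 encodes OCTN2, the sodium-dependent carnitine transporter whose loss causes systemic carnitine deficiency. It lay at 6.87, 6.60 and 5.96 in wild type and 6.16, 6.27 and 6.17 in the knockout. The knockout arrays were close to each other and lay within the wild-type range. The means were 6.48 ± 0.47 (SD, n = 3) and 6.20 ± 0.06 (SD, n = 3), a log2 difference of -0.28 (SE 0.21). Leaving out wild-type replicate 3 gave -0.54 and leaving out wild-type replicate 1 gave -0.08. The same-age differences were -0.71, -0.33 and 0.21, of mixed sign.

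The other 3 members have less settled substrates. Slc22a23, an orphan carrier, lay at 8.51, 8.33 and 8.73 in wild type and 8.84, 8.52 and 8.53 in the knockout, a log2 difference of 0.11 (SE 0.15). Slc22a18, an imprinted gene, lay at 7.14, 7.67 and 7.31 and at 7.38, 7.26 and 7.21, a log2 difference of -0.09 (SE 0.15). Slc22a15, described as a carrier of zwitterions, lay at 5.14, 5.41 and 5.56 and at 5.76, 5.43 and 5.39, a log2 difference of 0.16 (SE 0.16). All 3 differences were of about the size of their standard errors or smaller, and the groups overlapped. Their same-age differences had mixed signs, from -0.41 to 0.24 for Slc22a18, from -0.20 to 0.33 for Slc22a23 and from -0.17 to 0.62 for Slc22a15.

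**Figure D3:**
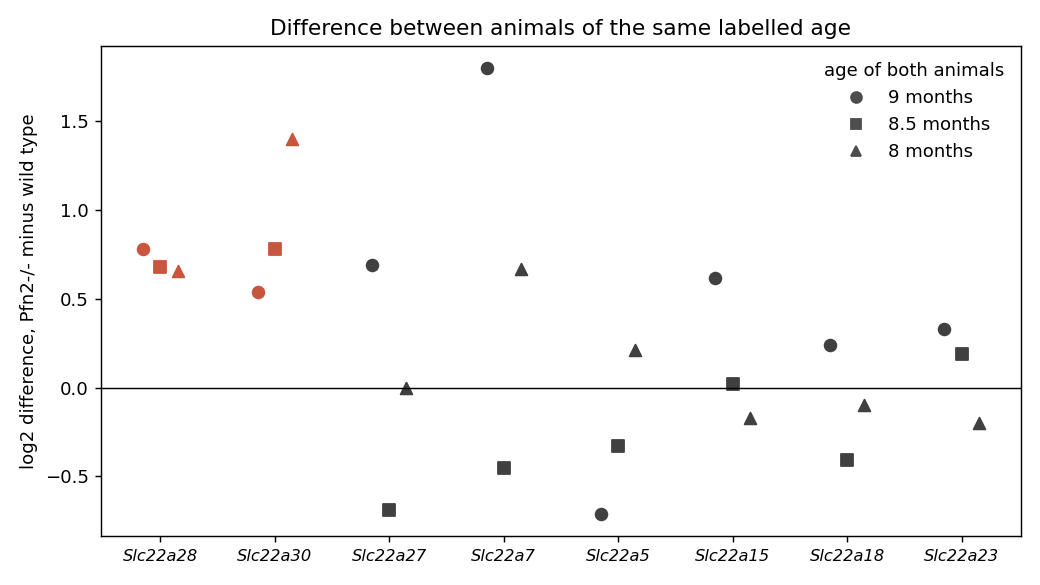
Log2 difference, Pfn2-/- minus wild type, between the 2 animals of the same labelled age (y axis) for the 8 members (x axis), with the shape giving the age. The differences of Slc22a28 (0.66 to 0.78) and Slc22a30 (0.54 to 1.40), in red, are all above 0. Any pairing would give that sign, since the groups of these genes, chosen for being higher, do not overlap. Each of the other 6 members has at least 1 difference at or below 0.

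Set beside the cation and carnitine transporters of the family, Slc22a28 and Slc22a30 had the larger differences. Slc22a2, which encodes the cation transporter OCT2, lay at 3.88, 3.73 and 3.46 in wild type and 3.48, 3.59 and 3.17 in the knockout (-0.28, SE 0.16, limma adjusted p = 0.952). Slc22a4, the ergothioneine and carnitine transporter OCTN1, lay at 4.86, 4.75 and 5.17 and at 4.93, 4.36 and 4.60 (-0.30, SE 0.17, adjusted p = 0.953). Slc22a21, a carnitine transporter next to Slc22a5 and Slc22a4 on chromosome 11, and Slc22a16, a carnitine transporter known from testis, had log2 differences of -0.01 (SE 0.14) and -0.02 (SE 0.13). With Slc22a5, these 5 genes had log2 differences of -0.30 to -0.01, against 0.71 and 0.91 for Slc22a28 and Slc22a30. The signs of Slc22a21 (-0.08 to 0.12) and Slc22a16 (-0.09 to 0.03) turned when single arrays were left out. The 14 anion transporter genes lay on both sides of 0, 7 above and 6 below, from -0.60 to 0.91. The contrast is given as a description, since Slc22a28 and Slc22a30 had been chosen for being higher.

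**Figure D4:**
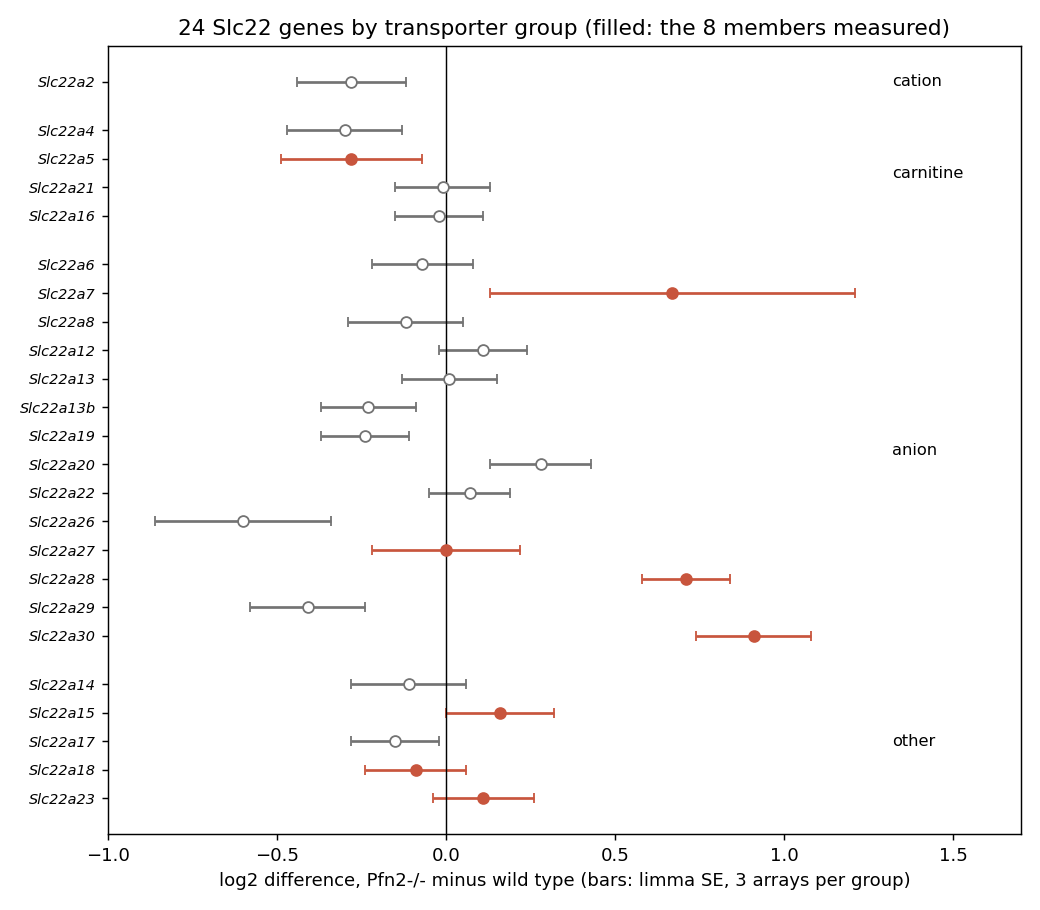
Log2 difference, Pfn2-/- minus wild type (x axis), with the limma SE as bars, for 24 Slc22 genes (y axis) grouped as cation, carnitine, anion and other carriers; filled red points are the 8 members and open grey points the other 16 genes. Slc22a28 and Slc22a30 lie farthest above 0 and Slc22a26 farthest below, and Slc22a7 has the widest bar.

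None of the 16 Slc22 genes outside the set passed the test between the genotypes. By limma with Benjamini-Hochberg adjustment over all 22180 genes, 0 of 16 had an adjusted p under 0.05, where 0% of all genes did. At an unadjusted p under 0.05 there were 2 of 16, Slc22a26 and Slc22a29, both lower in the knockout, against 5.29% of all genes. The groups did not overlap in 2 of 16, Slc22a19 and Slc22a26, both lower, against 9.85% of all genes. The log2 difference was below 0 in 12 of the 16 and above 0 in 4, with a median of -0.11. Of all 22180 genes, 11059 were below 0 and 10909 above, with a median of 0. The 16 are the family without the genes picked with the contrast known, so their signs do not speak for the whole family. Of the 16, 4 were dim in every array: Slc22a13b, Slc22a19, Slc22a22 and Slc22a29. Among the 8 members the groups did not overlap in 2, Slc22a28 and Slc22a30, the genes whose values had led to the choice.

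The rest of the 16 had small differences. Slc22a20, which encodes OAT6, an anion transporter of the olfactory epithelium, lay at 4.18, 3.97 and 4.19 in wild type and 4.52, 4.11 and 4.55 in the knockout (0.28, SE 0.15, adjusted p = 0.943). Slc22a17, a receptor for lipocalin 2, had a log2 difference of -0.15 (SE 0.13), and the urate transporter gene Slc22a12 one of 0.11 (SE 0.13). Slc22a14 differed by -0.11 (SE 0.17), Slc22a13 by 0.01 (SE 0.14) and Slc22a13b by -0.23 (SE 0.14). The prostaglandin transporter gene Slc22a22 was dim and differed by 0.07 (SE 0.12). Limma adjusted p was 0.943 or more for each of these genes.

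Of 22 genes listed for cation and carnitine handling, 20 were measured and 0 passed the adjusted threshold. The median log2 difference was -0.05, with 1 gene at an unadjusted p under 0.05 (5% of the list, against 5.29% of all genes) and 2 whose groups did not overlap (10%, against 9.85% of all genes), shares near those of all genes. The first was Crot, the peroxisomal carnitine octanoyltransferase, at 10.08, 10.21 and 9.79 in wild type and 10.85, 10.57 and 10.82 in the knockout (0.72, SE 0.15, limma adjusted p = 0.621). The choline transporter gene Slc44a2 followed with -0.30 (SE 0.15, adjusted p = 0.943), then Slc22a2 and Slc22a4. Crot encodes an enzyme, and the list mixes enzymes with transporters. Its place at the top does not set enzymes apart from transporters, since the shares were near those of all genes.

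Of 26 genes listed for other organic anion and bile acid transport, 25 were measured and 0 passed the adjusted threshold. There were 5 at an unadjusted p under 0.05, 4 higher and 1 lower, and 5 with groups that did not overlap, 3 higher and 2 lower, with a median of 0.09. Both counts are 20% of the list, against 5.29% and 9.85% of all genes. Slco1b2, a hepatocyte uptake transporter of bile acids and drugs, lay at 10.81, 10.87 and 11.15 in wild type and 11.56, 11.29 and 11.32 in the knockout (0.45, SE 0.14, limma adjusted p = 0.825). Abcc4, an efflux pump of the blood-facing membrane, was lower, at 5.41, 5.72 and 5.32 against 4.82, 5.16 and 4.97 (-0.50, SE 0.15, adjusted p = 0.791). The efflux pump gene Abcg2 differed by 0.59 (SE 0.24) and the phosphate and urate carrier gene Slc17a3 by 0.29 (SE 0.12), both with an adjusted p of 0.915. The list thus held uptake and efflux genes on either side of 0.

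Of 21 transcription factor and receptor genes known to act on hepatic transporters, 18 were measured and 0 passed. The median log2 difference was 0.04, with 4 genes at an unadjusted p under 0.05, 1 higher and 3 lower, and 5 with groups that did not overlap. These are 22.2% and 27.8% of the list, against 5.29% and 9.85% of all genes. Esr1, the estrogen receptor alpha gene, lay at 7.85, 7.50 and 7.30 in wild type and 6.64, 6.47 and 7.04 in the knockout (-0.83, SE 0.19, limma adjusted p = 0.668). Cebpb differed by -0.45 (SE 0.15, adjusted p = 0.882), the xenobiotic receptor gene Nr1i2 by -0.41 (SE 0.14, adjusted p = 0.895) and the growth hormone receptor gene Ghr by 0.28 (SE 0.12, adjusted p = 0.92). All 3 lists were chosen with earlier results of these data known.

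The genes whose values over the 6 arrays were most like those of Slc22a28 were Pdilt (Pearson's r = 0.982), Ces3a (0.974), Iffo2 (0.974), Chpt1 (0.973) and 5730405O15Rik (0.973). Those most like Slc22a30 were Mmd (0.993), Hsp90aa1 (0.977), Gatc (0.967), Gm13848 (0.966) and Pid1 (0.966). They were taken from 4660 genes with a mean above the median of all genes and a range of at least 0.5, so high values of r are bound to occur, and 6 arrays of 2 genotypes carry the correlation. Ces3a encodes a carboxylesterase of liver, Chpt1 an enzyme of phosphatidylcholine synthesis and Hsp90aa1 an inducible chaperone. The genes most like Slc22a28 were higher in the knockout by 0.41 to 0.61, and those most like Slc22a30 by 0.31 to 0.51. This direction, and a shared order of replicates, follow from picking genes by r with genes that were higher in the knockout. Mmd lay at 6.49, 6.26 and 6.27 in wild type and 6.80, 6.72 and 7.04 in the knockout, highest in replicate 3 as was Slc22a30. Pdilt lay at 6.49, 6.17 and 6.32 and at 7.03, 6.92 and 6.87, highest in replicate 1 as was Slc22a28. None of the 10 genes was on both lists.

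The tissue label was checked against markers. All 7 hepatocyte markers were well above the dim level, with Alb at 12.93 or more in every array. The summed level of these markers, on the log2 scale, was 14.55 to 14.71 in wild type and 14.46 to 14.53 in the knockout, ranges that did not overlap. By gene, the log2 difference was -0.03 for Alb and for Ttr, -0.10 for Hnf4a and -0.12 for Cps1. It was -0.18 for Apoa1, -0.27 for Tat and -0.49 for Ass1. Of 8 markers of kidney tubule, an organ in which many Slc22 genes are expressed, the sum was 7.15 to 7.29 in wild type and 7.11 to 7.29 in the knockout, with Slc12a1 dim in every array and the proximal tubule marker Slc34a1 at 3.82 to 4.33. The sum of 5 cholangiocyte markers was 7.08 to 7.38 in wild type and 7.45 to 7.72 in the knockout. There Sox9 (log2 difference 0.58) and the dim Cftr (0.33) did not overlap between the groups, while Krt19, Krt7 and Epcam differed by 0.05, 0.02 and -0.10. The sums of the macrophage, endothelial, stellate, lymphocyte, adipocyte, pancreas and red cell markers overlapped between the genotypes. Single markers without overlap were not particular to cholangiocytes. They were 2 of 7 for hepatocytes (Alb and Ass1, both lower) and 2 of 8 for kidney tubule (Slc12a1 lower, Aqp2 higher). There was 1 of 6 for stellate cells (Col3a1, lower) and 1 of 4 for pancreas (Prss2, higher). Over all genes the share was 9.85%. The part of cell composition in the Slc22 values was not tested, and in whole liver fewer cells of a type and less RNA per cell cannot be told apart.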

How the data were processed

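RNA of whole liver was measured on 6 arrays with 1 colour. The values deposited by the authors are on the log2 scale, made with RMA per the submitters' processing notes, which name limma too. Versions and annotation settings were not given in the sources used here. RMA makes arrays alike in distribution, so shifts shared by all genes are lost, and dim rows show compressed differences.

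Rows were named from the platform annotation supplied with the data. Of 34390 rows, 23521 carried 1 symbol, 1814 several and 9055 none. Per gene the row of highest mean over all arrays was kept, which gave 22180 genes, and each Slc22 gene had 1 row. The contrast of genotypes was fitted in R 4.3.3 by limma 3.58.1 (lmFit and eBayes, two-sided, genotype as the sole term) and Benjamini-Hochberg adjustment over all genes. The code was tested on simulated data. Upstream sequences were aligned with Biopython 1.88 (match 2, mismatch -1, gap open -5, gap extend -1, free ends). No protein sequences were compared.

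The members and lists were chosen with earlier results of these data known. Named were all Slc22 genes, the 4 genes of smallest p per list, and the 5 genes most like Slc22a28 and Slc22a30. Exceptions chosen after values were seen are Saa2, Orm2 and the 5 genes most like Slc22a7 in the closing section. The alternatives were 3 scalings, 2 filters on dim genes, the mean of all rows of a gene, robust eBayes, eBayes with a trend, array weights, a replicate block and each array left out.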

Additional observations from a re-analysis of the deposited data

How the results depend on the processing

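The log2 differences of Slc22a28 and Slc22a30 were 0.62 to 0.76 and 0.76 to 1.02 over the 16 alternatives. Most of these could not turn the sign. The filters, the mean of rows, both eBayes variants and the replicate block leave the difference of any Slc22 gene as it was. Leaving out or weighting arrays cannot turn the sign of Slc22a28 or Slc22a30, since their groups do not overlap. Slc22a7 ranged from 0.26 to 1.42 and Slc22a5 from -0.54 to -0.08, without change of sign. Slc22a15 ranged from 0.04 to 0.26 and Slc22a23 from 0.00 to 0.21. Slc22a18 (-0.21 to 0.06) and Slc22a27 (-0.22 to 0.23) changed sign when single arrays were left out. None of the 8 moved by more than 1 pooled within-group SD, a wide limit for Slc22a7, whose knockout SD was 1.30. Slc22a7 moved by more than its SE of 0.54, Slc22a5 by more than its SE of 0.21 and Slc22a27 by slightly more than its SE of 0.22. Slc22a27 did not pass either filter on dim genes and has no value there.

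None of the 16 other Slc22 genes passed the adjusted threshold under any alternative. The number of them with groups that do not overlap was 2. It was 0 when genes under the median were dropped (4 genes left) and 1 when those under the lower quartile were (10 left). It was 3, with Slc22a29 as the third gene, with quantile normalization again and with cyclic loess. With single arrays left out it ranged from 2 to 5, with 4 without wild-type replicate 2 or knockout replicate 3 and 5 without wild-type replicate 3 or knockout replicate 1, where fewer arrays make separation easier. Over all genes, 0 passed the adjusted threshold, 2 with array weights and 0 to 6 without single arrays, namely 1 when wild-type replicate 2 was dropped, 6 for wild-type replicate 3, 3 for knockout replicate 2 and 2 for knockout replicate 3. A replicate block let 7 genes pass, none of them an Slc22 gene. Same-numbered animals share a labelled age, but their deviations from the group means correlated at -0.082, 0.155 and 0.02 across genes, so the numbers were not taken as pairs. Of the 3 wild-type arrays, 1 correlated best with the knockout array of its own number. The median of all genes moved by at most 0.0067 under the scalings. The cause of these changes was not tested.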

Other observations

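The genes most like Slc22a7 over the 6 arrays were looked up after its values were seen. They were Acsf2 (Pearson's r = 0.992), Rarres1 (0.981), the complement gene C4b (0.979), Pramel33 (0.972) and the acute-phase gene Orm1 (0.971), among 4660 genes compared. Rarres1 lay at 6.51, 5.84 and 7.59 in wild type and 8.41, 5.92 and 8.26 in the knockout, and Orm1 at 10.87, 10.99 and 11.31 and at 11.46, 10.70 and 11.60. In both, as in Slc22a7, knockout replicates 1 and 3 were the highest arrays, wild-type replicate 3 was the highest of its group and knockout replicate 2 was within or below the wild-type range. Such likeness is bound to occur, since the genes were picked by r over the 6 arrays. The values are given with no test.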
